A study of Homo sapiens with 6 samples.

Results

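The genes described here code for the machinery that moves and divides chromosomes: mitotic kinesin motors, spindle proteins and their kinases, the proteins of cytokinesis, regulators of anaphase, and condensin with other chromosome proteins. The 50 genes were taken by symbol from the 57150 rows of the deposited table. Each symbol had 1 row except CKS1B, for which the row with the higher mean over the 6 libraries was kept. All 50 were found. FPKM are fragments scaled by transcript length and by library, and how the libraries were scaled is not stated. A mean of 1 FPKM was required for testing, and 49 of the genes reached it. The exception was ESPL1.

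In a dividing cell, microtubules form a bipolar spindle on which kinesins slide, crosslink and shorten the filaments, while condensin compacts the chromosomes. The anaphase-promoting complex, a ubiquitin ligase, then marks securin and the mitotic cyclins for destruction, separase cuts the rings that hold sister chromatids together, and a contractile ring at the central spindle divides the cell. Transcripts of many of these genes are low in G1 and accumulate towards mitosis, and they are widely used as markers of proliferating tumour cells.

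RNA was measured in H358 cells, an established epithelial cell line of human non-small-cell lung carcinoma. One group had RBM47, an RNA-binding protein, lowered by lentiviral short hairpin RNAs (RBM47 knockdown), and the other carried a control knockdown. There were 3 libraries per group, described as biological triplicates. The cells were a mixed population, so a larger share of cells in mitosis and more of a transcript in each such cell cannot be told apart.

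RBM47 was at 12.01, 13.4 and 13.5 FPKM after its knockdown, against 85.2, 92.4 and 87.9 FPKM in the control libraries, and 14.6% of the control level was left. The fragment depth of the libraries is unknown. Relative depth, read from the lowest nonzero values with RBM47 knockdown replicate 1 set at 1, was 1.03 and 1.05 for knockdown replicates 2 and 3 and 1.08 to 1.16 in the control libraries. Of 8 tested epithelial and lung markers 5 were lower in the knockdown and none higher (limma, with 6 and 0 at an unadjusted p under 0.05). Over all tested genes 6.34% were called lower. KRT7 and KRT8 kept their calls in each of the 6 fits that left out 1 library. CDH1, KRT18 and KRT19 lost theirs in 2, 2 and 3 of these fits. Summed over 11 markers the level was 3049 to 3124 FPKM in the knockdown libraries and 3642 to 3907 FPKM in the control libraries. SFTPB and SCGB1A1, which mark differentiated lung secretory cells, were listed at 0 in every library. Of 16 markers of other cell types 15 were in the table, with sums of 36.2 to 45.8 FPKM in knockdown libraries and 45.8 to 51.5 FPKM in control libraries, held mostly by CD68 and COL1A1. HBB and CHGA were listed at 0 in all 6, and the part of these markers in the results below was not tested.

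Nearly the whole mitotic set was higher after RBM47 knockdown. Of the 49 tested genes 41 rose, none fell and 8 did not pass the threshold (limma on log2(FPKM + 1), Benjamini-Hochberg adjusted p under 0.05 over 14419 genes; 46 higher and 0 lower at an unadjusted p under 0.05). Over all tested genes 5.1% were called higher and 6.34% lower. The median log2 fold change was 0.75 for the 49 genes and 0.01 for all tested genes. All 49 had a positive log2 fold change of FPKM + 1, from 0.09 for SMC2 to 1.35 for NUSAP1. In 47 of the 50 genes every knockdown value lay above every control value, the exceptions being PLK4, FBXO5 and SMC2, while 17.3% of all tested genes showed such a separation upwards. With 3 libraries a group, the two-sided exact permutation p for those 47 was 0.1, and no smaller value is possible. The ratio of mean FPKM, knockdown over control, had a median of 2.14 over the 50 genes and reached at least 2 in 28 of them.

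The count of 41 depended on single libraries. Leaving out RBM47 knockdown replicate 1 gave 39 calls, replicate 2 gave 23 and replicate 3 gave 28. Leaving out control replicate 1, 2 or 3 gave 26, 32 or 26. Of the 41 genes, 22 passed in each of these 6 fits. All 49 log2 fold changes stayed positive in every one of them. Of the 50 genes 32 lie in a locus that the table gives to more than 1 gene, so that shared fragments may affect their values. Among the 17 tested genes alone in their locus 14 rose, and among the 32 in shared loci 27 rose.

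**Figure D1:**
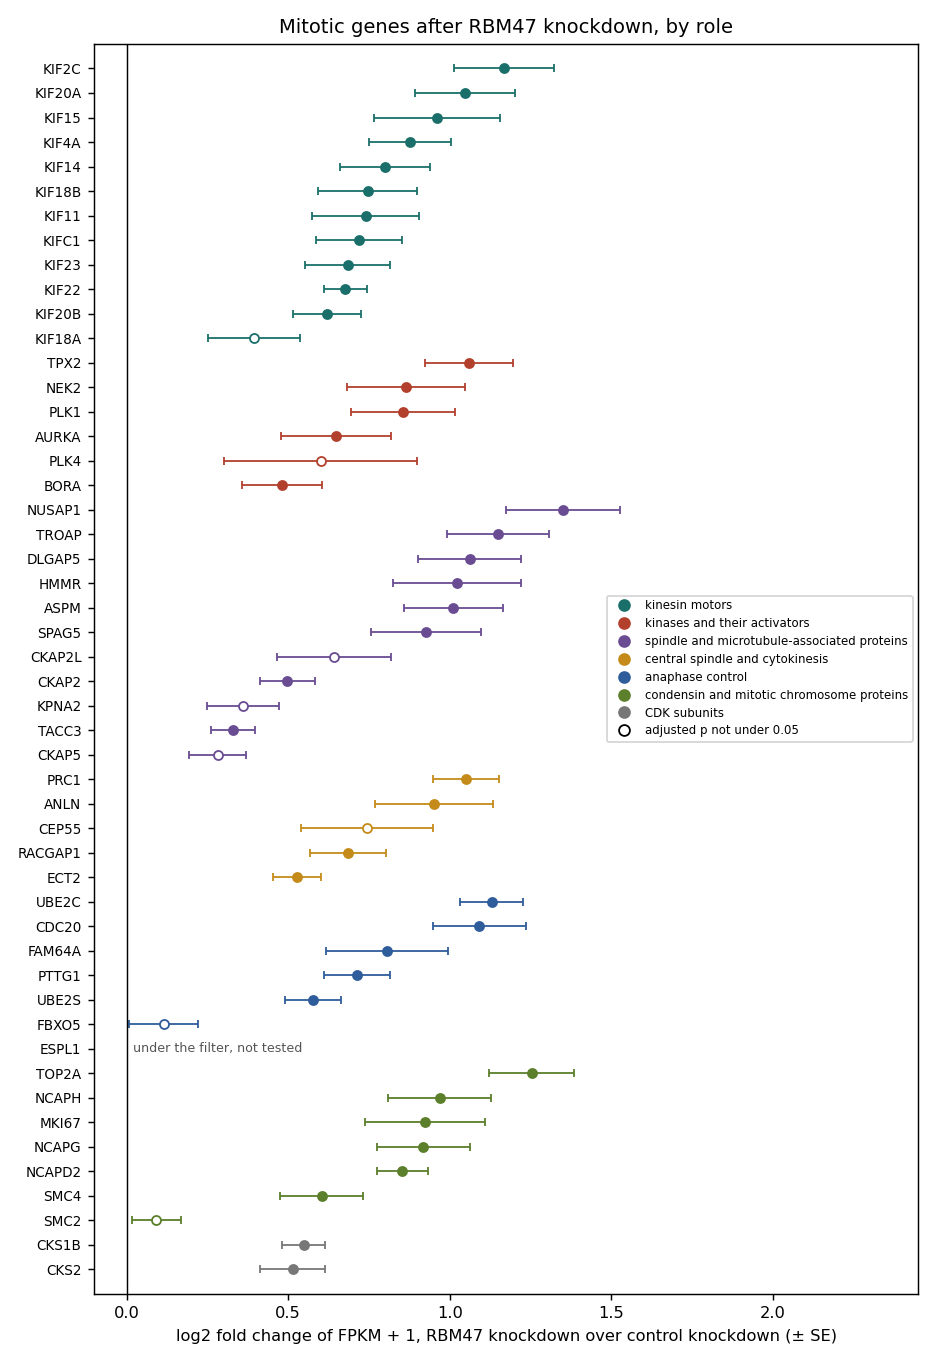
Log2 fold change of FPKM + 1 (RBM47 knockdown over control knockdown, horizontal axis, ± SE from limma) of each gene, ordered by role. Filled points passed an adjusted p under 0.05. All 49 tested genes lie right of 0, from SMC2 at 0.09 to NUSAP1 at 1.35.

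Promoters of genes that are transcribed towards mitosis are known to carry a cell cycle genes homology region (CHR), often downstream of CCAAT boxes bound by NF-Y. RefSeq start sites of build GRCh38.p14 were found for 44 of the 50 genes, each with 250 bases before and 50 after the start, and 7 of the 44 had several start sites. A CHR of the letters TTTGAA or TTTAAA was present in a window of 39 of the 44 genes (88.6%), against 27.9% of 27305 genes in the same reference. Within 50 bases of the start it was present in 33 (75%), against 9.41%. A CCAAT box was present in 35 (79.5%), against 39.7%, and at least 2 of them in 22 (50%), against 12.9%. Both strands were searched, overlapping matches were counted, and a gene with several windows counted once. The median GC content was 62.7% in the promoters of the 44 genes and 58.3% in all. A match is a run of letters and does not show binding.

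Of 63 CHR matches 40 had their centre within 50 bases of the start. The median centre of the CHR matches lay at -28 relative to the start, and 78 CCAAT matches had their median centre at -72. Fold changes of genes with and without the element near the start are given as a description, and their difference was not tested. The 32 tested genes with a CHR within 50 bases of the start had a median log2 fold change of 0.77 and a lowest of 0.09, and 24 rose. The 11 genes without one there, TOP2A and CDC20 among them, had a median of 0.68 and a lowest of 0.33, and 11 rose. KIF22, NEK2, TACC3, CKAP2 and UBE2S had neither CHR spelling in any window and rose by 0.33 to 0.86.

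**Figure D2:**
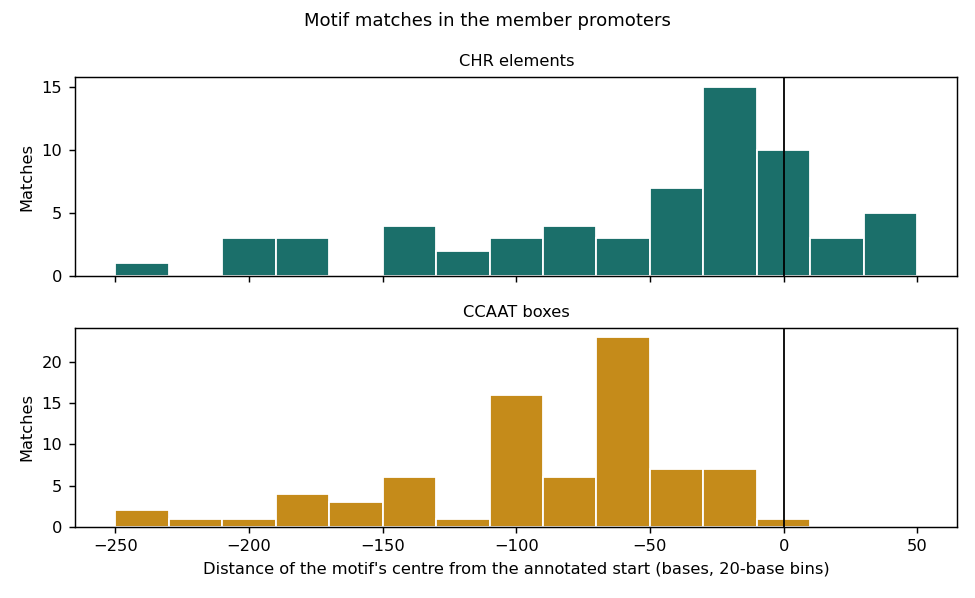
Number of motif matches (vertical axis) by the distance of the motif's centre from the annotated start (horizontal axis, bases, 20-base bins) in 52 promoter windows of 44 genes, for CHR elements above and CCAAT boxes below. The fullest CHR bin, from -30 to -10 relative to the start, held 15 matches, and the fullest CCAAT bin, from -70 to -50, held 23. A match in 2 overlapping windows of a gene is counted in each.

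Promoters of 5 genes that rose, NUSAP1, TOP2A, PLK1, KIF20A and KIF2C, are shown with those of SMC2 and FBXO5, which did not pass the threshold, as examples of how the elements are arranged. Among these examples both kinds of gene include promoters with and without CCAAT boxes, and a relation of the arrangement to the fold change was not tested. Capitals mark CCAAT (or ATTGG on the other strand), TTTGAA (or TTCAAA) and TTTAAA. The windows are chr15:41332631-41332930 on the plus strand for NUSAP1, chr17:40417847-40418146 on the minus strand for TOP2A, chr16:23678639-23678938 on the plus strand for PLK1, chr5:138178862-138179161 on the plus strand for KIF20A and chr1:44739587-44739886 on the plus strand for KIF2C. Those of the genes that did not pass are chr9:104094059-104094358 on the plus strand for SMC2 and chr6:152982992-152983291 on the minus strand for FBXO5, each at 1 of the gene's 2 starts. Each is written 5′ to 3′ in the direction of transcription, and the start site follows the first 250 bases.
NUSAP1: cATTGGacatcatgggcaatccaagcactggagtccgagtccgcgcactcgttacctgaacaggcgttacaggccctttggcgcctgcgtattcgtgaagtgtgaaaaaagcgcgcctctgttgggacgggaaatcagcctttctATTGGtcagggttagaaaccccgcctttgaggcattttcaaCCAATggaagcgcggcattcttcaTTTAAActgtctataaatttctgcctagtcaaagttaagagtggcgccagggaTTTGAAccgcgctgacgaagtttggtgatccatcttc
TOP2A: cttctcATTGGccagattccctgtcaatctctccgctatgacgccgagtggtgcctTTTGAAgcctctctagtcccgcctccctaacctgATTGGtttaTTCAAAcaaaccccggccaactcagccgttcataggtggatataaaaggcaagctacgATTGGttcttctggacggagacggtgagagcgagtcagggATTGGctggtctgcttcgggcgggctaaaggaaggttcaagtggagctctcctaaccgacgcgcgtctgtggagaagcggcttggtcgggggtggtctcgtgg
PLK1: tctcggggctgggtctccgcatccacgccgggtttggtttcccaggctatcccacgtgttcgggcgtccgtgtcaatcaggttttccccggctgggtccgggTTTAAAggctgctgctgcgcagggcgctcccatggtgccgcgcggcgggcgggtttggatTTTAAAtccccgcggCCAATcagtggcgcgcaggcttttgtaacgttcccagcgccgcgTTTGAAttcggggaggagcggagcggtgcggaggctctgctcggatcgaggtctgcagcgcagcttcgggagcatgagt
KIF20A: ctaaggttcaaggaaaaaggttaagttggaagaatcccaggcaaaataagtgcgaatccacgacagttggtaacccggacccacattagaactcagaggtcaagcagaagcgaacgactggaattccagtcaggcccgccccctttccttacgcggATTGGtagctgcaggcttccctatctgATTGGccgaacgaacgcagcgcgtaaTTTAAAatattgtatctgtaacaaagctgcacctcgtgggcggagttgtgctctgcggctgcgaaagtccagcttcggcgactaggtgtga
KIF2C: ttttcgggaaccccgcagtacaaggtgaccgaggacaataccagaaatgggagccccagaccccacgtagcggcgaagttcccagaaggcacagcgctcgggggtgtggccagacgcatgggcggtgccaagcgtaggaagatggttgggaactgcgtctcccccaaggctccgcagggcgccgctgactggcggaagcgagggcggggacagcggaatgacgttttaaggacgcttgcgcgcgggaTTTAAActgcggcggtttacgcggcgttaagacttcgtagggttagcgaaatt
SMC2: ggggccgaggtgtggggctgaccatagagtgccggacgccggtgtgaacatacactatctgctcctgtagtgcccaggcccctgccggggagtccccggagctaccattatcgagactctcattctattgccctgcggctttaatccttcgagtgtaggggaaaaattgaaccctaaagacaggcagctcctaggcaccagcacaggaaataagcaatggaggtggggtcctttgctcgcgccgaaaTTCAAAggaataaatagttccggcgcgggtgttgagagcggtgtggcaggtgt
FBXO5: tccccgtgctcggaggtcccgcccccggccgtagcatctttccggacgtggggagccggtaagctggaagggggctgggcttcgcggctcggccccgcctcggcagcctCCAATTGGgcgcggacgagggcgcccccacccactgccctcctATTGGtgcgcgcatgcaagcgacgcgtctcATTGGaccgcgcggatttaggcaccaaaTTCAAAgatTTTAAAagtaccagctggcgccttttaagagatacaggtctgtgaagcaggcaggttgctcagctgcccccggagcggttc
NUSAP1 had both CHR spellings and 3 CCAAT boxes in its window. TOP2A had 4 CCAAT boxes, and its pair of TTTGAA matches lay further upstream, at -194 and -151 relative to the start site. PLK1 had 1 CCAAT box, with TTTAAA upstream of it and TTTGAA between it and the start. KIF20A had 2 CCAAT boxes followed by TTTAAA. KIF2C had TTTAAA and no CCAAT box, and KIF15, ANLN, SPAG5, NCAPG and SMC4, which also rose, likewise had a CHR and no CCAAT box. SMC2 had a single TTTGAA match across the start and no CCAAT in either of its windows. FBXO5 had 4 CCAAT matches, 2 of which overlap on opposite strands, and both CHR spellings in the window shown and neither motif in its other window. KPNA2 and CKAP5, which did not pass either, each had 2 CCAAT boxes and a CHR near the start.

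Kinesins are motors that walk along microtubules or take them apart at their ends. Of the 12 mitotic kinesins 11 rose, with a median log2 fold change of 0.74. KIF2C, which depolymerises microtubules at kinetochores (chromosome 1, 45205490 to 45244451, hg19, in a locus of 7 genes), was at 5.62, 7.67 and 7.34 FPKM after RBM47 knockdown, against 2.08, 3.23 and 2.24 FPKM in control cells (log2 fold change 1.17, SE 0.16; adjusted p = 0.00489 by limma). KIF20A, which carries cargo to the central spindle, was at 3.28, 3.86 and 5.09 FPKM in the knockdown, against 1.72, 1.26 and 1.33 FPKM in the control (1.05, SE 0.16, adjusted p = 0.00682). In both genes the lowest knockdown library stood well above the highest control library.

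KIF15, which helps hold the spindle poles apart, was at 2.73, 3.02 and 3.70 FPKM in the knockdown and at 0.629, 1.19 and 1.69 FPKM in the control (log2 fold change 0.96, SE 0.20; adjusted p = 0.0213 by limma). KIF4A, a chromosome-bound motor, was at 3.14, 4.06 and 4.19 FPKM in the knockdown and at 1.42, 1.71 and 1.68 FPKM in the control (0.88, SE 0.13, adjusted p = 0.00624). The control values of KIF15 spread widely, and its groups still did not overlap.

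KIF11, the motor that drives spindle poles apart and the target of several antimitotic compounds, rose by 0.74. KIF14 and KIF23, which act in cytokinesis, rose by 0.80 and 0.68, and KIF18B, KIFC1, KIF22 and KIF20B rose by 0.75, 0.72, 0.68 and 0.62. KIF22, which binds chromosome arms, was at 9.74 ± 0.148 FPKM in the knockdown and 5.72 ± 0.217 FPKM in the control (SD, n = 3 each; limma, adjusted p = 0.00196). KIF18A, which dampens chromosome movements, did not pass. It was at 1.43, 1.90 and 1.88 FPKM in the knockdown and at 0.852, 1.21 and 1.19 FPKM in the control (log2 fold change 0.39, SE 0.14, adjusted p = 0.12), again without overlap. KIF20A and KIF20B are paralogues with unequal fold changes. The within-library difference in log2(FPKM + 1) of KIF20A over KIF20B was 0.38 ± 0.19 in the knockdown and -0.05 ± 0.17 in the control (SD, n = 3 each, exact permutation test p = 0.1, adjusted p = 0.1 over 10 such pairs chosen after the values were seen). All 10 pairs had this p, the smallest possible with 3 libraries a group. Here and for the pairs below it thus lends no support to a difference.

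The kinesin count was 6 when knockdown replicate 2 was left out, and 7 when knockdown replicate 3 or control replicate 3 was. KIF11 and KIF18B lost their calls in each fit without 1 library except that without RBM47 knockdown replicate 1 (adjusted p = 0.07 to 0.0975 and 0.0516 to 0.0728). KIF15 lost its call on leaving out knockdown replicate 2 or 3, or control replicate 2 (0.0632 to 0.0729). KIF23 lost it without any one knockdown library or control replicate 3 (0.0526 to 0.0675), and KIFC1 when leaving out knockdown replicate 2, or else control replicate 1 or 3 (0.0536 to 0.0598).

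Of the mitotic kinases and the proteins that activate them, 5 of 6 rose, with a median of 0.75. TPX2, which targets AURKA to the spindle and switches it on (chromosome 20, 30327074 to 30389608, hg19), was at 14.5, 17.1 and 17.2 FPKM after RBM47 knockdown, against 5.70, 8.40 and 7.95 FPKM in control cells (log2 fold change 1.06, SE 0.13; adjusted p = 0.00428 by limma). AURKA itself, the Aurora A kinase of centrosome and spindle, was at 7.35, 10.9 and 11.7 FPKM in the knockdown and at 5.01, 6.81 and 6.04 FPKM in the control (0.65, SE 0.17, adjusted p = 0.0484). Its groups did not overlap, but its lowest knockdown value came close to its highest control value. The difference in log2(FPKM + 1) of TPX2 over AURKA within a library was 0.67 ± 0.20 in the knockdown and 0.26 ± 0.10 in the control (SD, n = 3 each, exact permutation test p = 0.1, adjusted p = 0.1 over the 10 pairs).

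PLK1, a kinase that acts from mitotic entry to cytokinesis, was at 5.22, 7.74 and 6.11 FPKM in the knockdown, against 2.55, 3.86 and 2.79 FPKM in the control (log2 fold change 0.86, SE 0.16; adjusted p = 0.0174 by limma). NEK2, a kinase that separates centrosomes, was at 4.87, 4.51 and 6.88 FPKM in the knockdown, against 1.86, 3.20 and 2.52 FPKM in the control (0.86, SE 0.18, adjusted p = 0.0236). BORA, the protein with which Aurora A activates PLK1, rose by 0.48 (adjusted p = 0.0464). PLK4, the kinase that starts centriole duplication, did not pass, at 1.76, 2.73 and 5.28 FPKM in the knockdown and 1.75, 2.22 and 1.09 FPKM in the control (0.60, SE 0.30, adjusted p = 0.233). Its 3 knockdown values were far apart and the groups overlapped.

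Leaving out RBM47 knockdown replicate 1, 2 or 3 changed the count of 5 to 3, 1 or 2, and leaving out control replicate 1, 2 or 3 changed it to 1, 3 or 1. TPX2 passed in all 6 of these fits. BORA lost its call in each of them (adjusted p = 0.0786 to 0.124), AURKA in all except that without RBM47 knockdown replicate 1 (0.0857 to 0.153) and NEK2 in all except that without control replicate 2 (0.053 to 0.0742). PLK1 lost it without knockdown replicate 2, or else control replicate 1 or 3 (0.0611 to 0.067).

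Spindle and microtubule-associated proteins varied in their log2 fold changes of FPKM + 1, from 0.28 for CKAP5 to 1.35 for NUSAP1. Of 11 genes 8 rose and 3 did not pass, with a median of 0.93. NUSAP1 bundles spindle microtubules (chromosome 15, 41624892 to 41673248, hg19, in a locus of 2 genes). It was at 16.3, 25.7 and 20.9 FPKM after RBM47 knockdown, against 5.96, 8.70 and 8.03 FPKM in control cells, a ratio of 2.77 (log2 fold change 1.35, SE 0.18, adjusted p = 0.00457 by limma). TROAP, needed for spindle assembly, was at 4.16, 4.68 and 5.11 FPKM in the knockdown and at 1.67, 2.01 and 1.04 FPKM in the control (log2 fold change 1.15, SE 0.16; adjusted p = 0.00545 by limma). DLGAP5, which stabilises kinetochore fibres, was at 4.08, 4.66 and 6.38 FPKM in the knockdown and at 1.51, 2.09 and 2.004 FPKM in the control (1.06, SE 0.16, adjusted p = 0.00711). The knockdown libraries stood well above the control level in each of these genes. HMMR, a hyaluronan receptor that also binds spindle poles, was at 3.91, 6.99 and 6.62 FPKM in the knockdown and at 1.85, 2.35 and 2.74 FPKM in the control (1.02, SE 0.20, adjusted p = 0.0187). ASPM, a spindle pole protein mutated in microcephaly, rose by 1.01, and SPAG5, which acts at spindle poles and kinetochores, rose by 0.93.

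The other genes of the group had smaller fold changes. CKAP2 rose by 0.50 and TACC3 by 0.33. KPNA2, an importin that keeps TPX2 inactive, did not pass, at 33.03, 40.1 and 44.6 FPKM in the knockdown and 27.2, 32.5 and 31.0 FPKM in the control (log2 fold change 0.36, SE 0.11; adjusted p = 0.0806 by limma). CKAP5, a microtubule polymerase and partner of TACC3, was at 17.6, 18.9 and 20.1 FPKM in the knockdown and at 14.0, 17.3 and 14.8 FPKM in the control (0.28, SE 0.09, adjusted p = 0.0807). CKAP2L was at 4.34, 4.93 and 5.75 FPKM in the knockdown and at 2.38, 4.02 and 2.31 FPKM in the control (0.64, SE 0.18, adjusted p = 0.0562). In all 3 the groups did not overlap, though the lowest knockdown value of KPNA2 lay just above its highest control value. The difference in log2(FPKM + 1) of TPX2 over KPNA2 within a library was -1.21 ± 0.10 in the knockdown and -1.91 ± 0.14 in the control (SD, n = 3 each, exact permutation test p = 0.1, adjusted p = 0.1 over the 10 pairs).

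The count of 8 became 4 when knockdown replicate 2 was left out, and 5 when control replicate 1 was. HMMR lost its call on leaving out knockdown replicate 2 or 3, or control replicate 1 or 2 (limma, adjusted p = 0.0558 to 0.0728), and TACC3 in all 6 fits except that without RBM47 knockdown replicate 1 (0.0588 to 0.0853). SPAG5 lost it without knockdown replicate 2, or else control replicate 1 or 3 (0.0568 to 0.0602), and CKAP2 without RBM47 knockdown replicate 2 (0.0523). CKAP2L passed without control replicate 2 (0.0248), and KPNA2 without RBM47 knockdown replicate 1 (0.035).

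Among the 5 proteins of the central spindle and the contractile ring 4 rose, with a median of 0.74. PRC1, which crosslinks the antiparallel microtubules of the central spindle (chromosome 15, 91509270 to 91538859, hg19, in a locus of 3 genes), was at 9.40, 11.2 and 11.4 FPKM after RBM47 knockdown, against 4.06, 4.91 and 4.93 FPKM in control cells (log2 fold change 1.05, SE 0.10; adjusted p = 0.00196 by limma). ANLN, the ring scaffold anillin, was at 7.40, 10.9 and 9.20 FPKM in the knockdown and at 3.16, 5.52 and 4.19 FPKM in the control (0.95, SE 0.18, adjusted p = 0.0184). RACGAP1, which forms the centralspindlin complex with KIF23, was at 14.6, 17.3 and 19.2 FPKM in the knockdown and at 8.82, 10.7 and 11.1 FPKM in the control (0.68, SE 0.12, adjusted p = 0.0118). Both subunits of centralspindlin thus had a log2 fold change of 0.68.

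ECT2, the exchange factor that activates RhoA at the equator, was at 8.04, 8.31 and 8.69 FPKM in the knockdown and at 5.31, 5.33 and 5.84 FPKM in the control (log2 fold change 0.53, SE 0.07; adjusted p = 0.00587 by limma). CEP55, which recruits the abscission machinery, did not pass, at 1.497, 2.75 and 2.61 FPKM in the knockdown and 0.729, 1.35 and 0.770 FPKM in the control (0.74, SE 0.20, adjusted p = 0.0556). Its groups did not overlap, and it passed without RBM47 knockdown replicate 1 (0.0347). The count of 4 was 2 without RBM47 knockdown replicate 2, where RACGAP1 (0.0559) and ANLN lost their calls. ANLN also lost its call on leaving out RBM47 knockdown replicate 3 or control replicates 1 or 3 (0.0523 to 0.0723).

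Of the tested genes that govern the exit from metaphase 5 of 6 rose, with a median of 0.76. UBE2C, the ubiquitin-conjugating enzyme that starts chains for the anaphase-promoting complex (chromosome 20, 44441215 to 44445596, hg19), was at 17.9, 22.4 and 19.8 FPKM after RBM47 knockdown, against 7.72, 9.17 and 8.90 FPKM in control cells (log2 fold change 1.13, SE 0.10; adjusted p = 0.00143 by limma). CDC20, the activator of that complex in mitosis, was at 9.35, 12.2 and 11.5 FPKM in the knockdown and at 3.58, 5.30 and 5.11 FPKM in the control (1.09, SE 0.14, adjusted p = 0.00488). PTTG1, the gene of securin, was at 21.9, 25.4 and 23.4 FPKM in the knockdown and at 12.3, 13.7 and 16.2 FPKM in the control (0.71, SE 0.10, adjusted p = 0.00615). FAM64A, a mitotic regulator now named PIMREG, was at 1.92, 2.69 and 2.94 FPKM in the knockdown and at 0.862, 1.4998 and 0.702 FPKM in the control (0.81, SE 0.19, adjusted p = 0.0332). In all 4 genes the groups were apart, with the smallest gap in FAM64A.

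UBE2S, which extends the chains that UBE2C begins, rose by 0.58. The table also holds UBE2SP1, a pseudogene of it, at 2.62, 2.81 and 2.39 FPKM in the knockdown and 1.03, 1.39 and 1.61 FPKM in the control, and how fragments were shared between the copies is not known. FBXO5, also called EMI1, inhibits the anaphase-promoting complex before mitosis. It did not pass, at 2.54, 2.78 and 2.67 FPKM in the knockdown and 2.63, 2.41 and 2.12 FPKM in the control (log2 fold change 0.11, SE 0.11; adjusted p = 0.524 by limma), and its groups overlapped. The difference in log2(FPKM + 1) of CDC20 over FBXO5 within a library was 1.71 ± 0.14 in the knockdown and 0.73 ± 0.35 in the control (SD, n = 3 each, exact permutation test p = 0.1, adjusted p = 0.1 over the 10 pairs).

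ESPL1, the gene of separase, lay under the filter. It was at 0.936, 1.25 and 1.10 FPKM in the knockdown and at 0.334, 0.566 and 0.312 FPKM in the control, without overlap. FAM64A lost its call on leaving out knockdown replicate 2 or 3, or control replicate 1 or 3 (limma, adjusted p = 0.0905 to 0.108). UBE2C, CDC20, PTTG1 and UBE2S passed in all 6 fits that left out 1 library.

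Of the 7 chromosome proteins 6 rose, with a median of 0.92. TOP2A is the topoisomerase that untangles sister chromatids and the target of etoposide (chromosome 17, 38544768 to 38574202, hg19, in a locus of 2 genes). It was at 25.6, 30.9 and 35.3 FPKM after RBM47 knockdown, against 10.6, 14.1 and 11.96 FPKM in control cells, the highest level in this group in both conditions (log2 fold change 1.25, SE 0.13, adjusted p = 0.00246 by limma). MKI67, the gene of the proliferation marker Ki-67, was at 2.66, 3.89 and 4.44 FPKM in the knockdown and at 1.003, 1.62 and 1.72 FPKM in the control (log2 fold change 0.92, SE 0.19; adjusted p = 0.0206 by limma). TOP2B, the paralogue of TOP2A that is expressed throughout the cell cycle, was at 40.8, 43.5 and 44.7 FPKM in the knockdown and at 38.1, 38.4 and 39.5 FPKM in the control (0.15). The difference in log2(FPKM + 1) of TOP2A over TOP2B within a library was -0.49 ± 0.16 in the knockdown and -1.59 ± 0.19 in the control (SD, n = 3 each, exact permutation test p = 0.1, adjusted p = 0.1 over the 10 pairs).

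Condensin I consists of the ATPases SMC2 and SMC4, the kleisin NCAPH and the repeat proteins NCAPD2 and NCAPG. NCAPH was at 3.09, 4.74 and 3.65 FPKM in the knockdown and at 1.14, 1.74 and 1.49 FPKM in the control (log2 fold change 0.97, SE 0.16; adjusted p = 0.0102 by limma). NCAPG was at 3.03, 4.19 and 3.91 FPKM in the knockdown and at 1.80, 1.47 and 1.19 FPKM in the control (0.92, SE 0.14, adjusted p = 0.00884). NCAPD2 rose by 0.85 and SMC4 by 0.60. SMC2 did not pass, at 7.39, 8.42 and 7.85 FPKM in the knockdown and 7.51, 7.53 and 6.96 FPKM in the control (0.09, SE 0.08, adjusted p = 0.464), with overlapping groups.

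The fold changes of condensin I thus ranged from 0.09 for SMC2 to 0.97 for NCAPH. The difference in log2(FPKM + 1) of NCAPG over SMC2 within a library was -0.92 ± 0.12 in the knockdown and -1.75 ± 0.13 in the control. That of SMC4 over SMC2 was 0.90 ± 0.25 in the knockdown and 0.39 ± 0.25 in the control (SD, n = 3 each, exact permutation test p = 0.1 and adjusted p = 0.1 over the 10 pairs for both). SMC2 and SMC4 also serve condensin II. Of the subunits particular to condensin II, NCAPG2 rose by 0.61 (limma, adjusted p = 0.0275), while NCAPD3 and NCAPH2 lay at 0.45 and -0.03 and did not pass. Of the 6 fits, NCAPG2 kept its call in that which left out RBM47 knockdown replicate 1 (adjusted p = 0.0203, and up to 0.102 in the others). SMC4 lost its call in all of them except that without RBM47 knockdown replicate 2 (0.0528 to 0.0804), and MKI67 in all except that without RBM47 knockdown replicate 1 (0.0517 to 0.0795). TOP2A, NCAPD2, NCAPG and NCAPH kept theirs.

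CKS1B and CKS2 are small proteins that bind cyclin-dependent kinases. CKS1B, the most abundant of the 50 genes, was at 55.7, 60.8 and 56.6 FPKM in the knockdown and at 36.3, 42.5 and 38.8 FPKM in the control (log2 fold change 0.55, SE 0.07; adjusted p = 0.00373 by limma). CKS2 was at 29.1, 33.9 and 39.5 FPKM in the knockdown and at 23.7, 23.0 and 23.7 FPKM in the control (0.51, SE 0.10, adjusted p = 0.0188). Both groups of values stood apart in both genes. A further row with the symbol CKS1B, on chromosome 5, was at 2.60, 1.32 and 11.6 FPKM in the knockdown and at 3.52, 2.41 and 2.17 FPKM in the control, and was not used. CKS2 lost its call on leaving out RBM47 knockdown replicate 2 or any one control library (0.0618 to 0.0719).

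**Figure D3:**
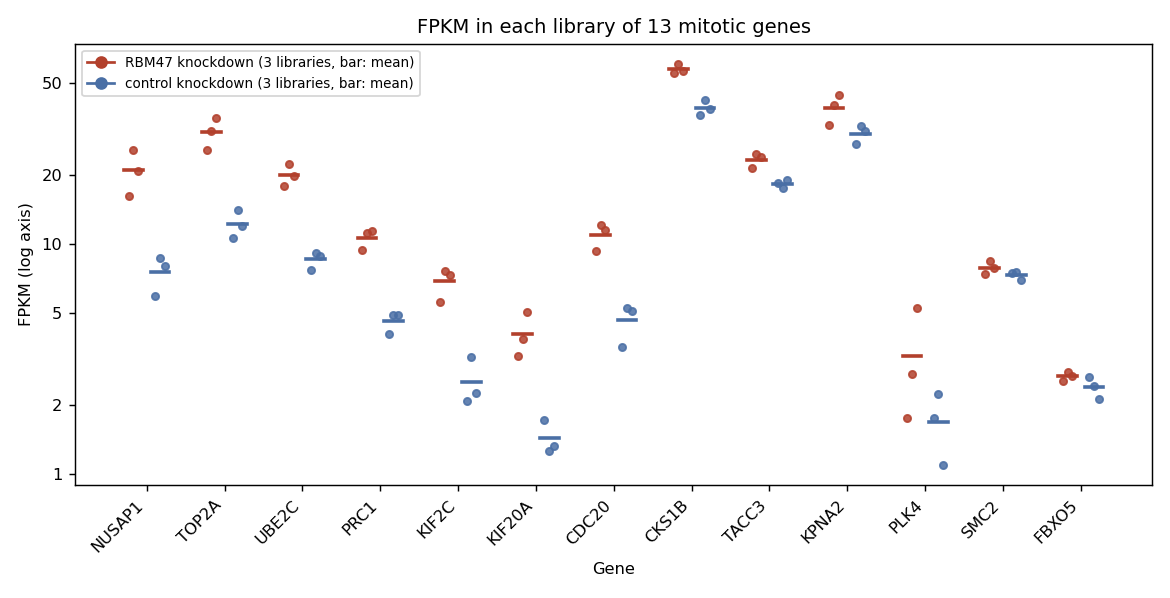
FPKM in each library (vertical axis, log scale) of 13 mitotic genes, with RBM47 knockdown left of control knockdown for each gene and a bar at the mean of 3 libraries. The knockdown points lie above all control points in 10 of the 13 genes, and overlap them in PLK4, SMC2 and FBXO5.

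The genes also varied together between replicates. In the knockdown group replicate 1 was the lowest of the 3 libraries in 46 of the 50 genes, while it was the lowest in 33.3% of all tested genes. Replicate 3 was the highest in 28 and replicate 2 in 20. In the control group replicate 1 was the lowest in 35 of the 50 genes and replicate 2 the highest in 32, against 35.8% and 34.3% of all tested genes. The summed level of the 50 genes was 484, 574 and 587 FPKM in RBM47 knockdown replicates 1, 2 and 3 and 291, 342 and 325 FPKM in control replicates 1, 2 and 3. The median deviation from a gene's control mean on the log2 scale was 0.61, 0.84 and 0.91 in the knockdown libraries, and -0.14, 0.09 and 0.02 in the control libraries. The spread within a group was thus shared between genes, and the genes are not independent readings of the response. Without RBM47 knockdown replicate 1 the median log2 fold change of the tested genes was 0.90.

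**Figure D4:**
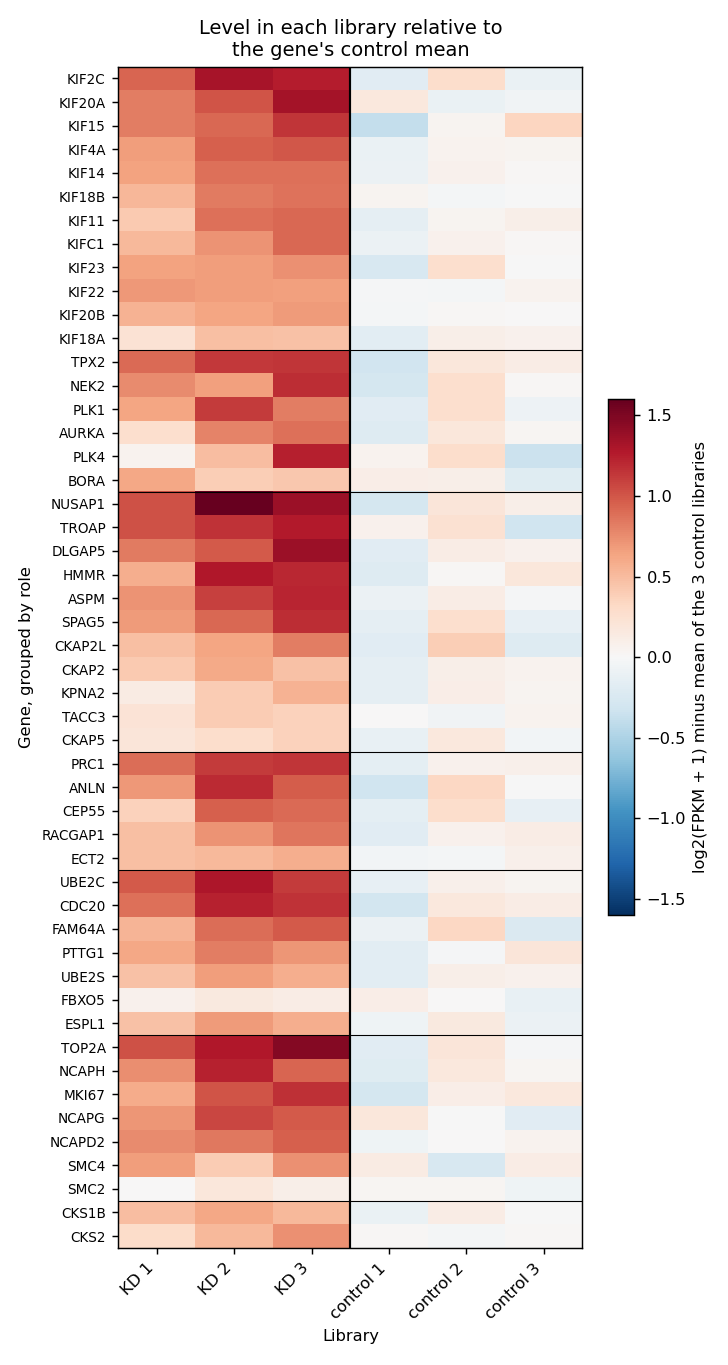
Level of each of the 50 genes (rows, grouped by role) in each library (columns), as log2(FPKM + 1) minus the mean of the 3 control libraries (colour scale). The 3 knockdown columns are red in nearly all rows, and knockdown replicate 1 is the palest of them in most.

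Levels ranged widely. Mean FPKM ran from 1.09 for ESPL1 to 57.7 for CKS1B in the knockdown, with a median of 6.10, and from 0.404 for ESPL1 to 39.2 for CKS1B in the control, with a median of 2.71. Median ratios were larger where the control level was lower. The 20 genes under 2 FPKM in the control had a median knockdown-over-control ratio of 2.51, the 20 genes from 2 to under 10 FPKM had 2.01, and the 10 genes at 10 FPKM or more had 1.46. Across the 50 genes the log2 ratio and the log2 control level had a Pearson r of -0.65, in which both measures share the control values. TOP2A was the exception among the abundant genes, with a ratio of 2.503. KIF18B, at 1.53 ± 0.315 FPKM in the knockdown and 0.5004 ± 0.0387 FPKM in the control (SD, n = 3 each), had the largest ratio of all, 3.06, though its log2 fold change with 1 FPKM added was 0.75.

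Related genes outside the set were taken from lists of other members of the same families and complexes, and the difference between a list and the mitotic set was not tested. Of 23 tested kinesins and kinesin light chains of transport and other functions none passed in either direction (limma; 0 higher and 2 lower at an unadjusted p under 0.05), and their median was -0.01. KIFC3 was at 72.9, 76.4 and 80.95 FPKM in the knockdown and at 73.8, 69.6 and 70.2 FPKM in the control, and KLC1 at 69.1, 68.4 and 69.8 FPKM in the knockdown and 66.2, 66.8 and 70.1 FPKM in the control. KIF2A, the closest paralogue of KIF2C, had a mean of 28.5 FPKM in the knockdown and 28.2 FPKM in the control. The log2 difference of KIF2C over KIF2A was -1.91 ± 0.17 in the knockdown and -3.07 ± 0.22 in the control (SD, n = 3 each; exact permutation test p = 0.1, adjusted p = 0.1 over the 10 pairs).

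Of 15 subunits of the anaphase-promoting complex itself none passed (1 higher and 1 lower at an unadjusted p under 0.05), and their median was 0.06, although its activator CDC20 and its enzymes UBE2C and UBE2S rose. ANAPC11, the catalytic RING subunit, was at 67.2, 68.0 and 59.0 FPKM in the knockdown and at 62.2, 72.1 and 72.7 FPKM in the control. ANAPC13 had means of 49.2 FPKM in the knockdown and 55.6 FPKM in the control. Of 19 genes of the gamma-tubulin ring complex and augmin, which nucleate microtubules, none passed (1 higher and 0 lower at an unadjusted p under 0.05), with a median of 0.08. The most abundant of them were MZT2B and MZT2A, with log2 fold changes of -0.08 and -0.09. Of 13 genes of condensin II and cohesin NCAPG2 alone passed.

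Genes of centriole duplication and the centrosome scaffold had 3 of 14 higher, none lower (7 and 0 at an unadjusted p under 0.05) and a median of 0.17. STIL, which works with PLK4 to build a centriole, was at 3.14, 3.36 and 4.27 FPKM in the knockdown and at 1.36, 1.58 and 1.36 FPKM in the control (log2 fold change 0.91, limma, adjusted p = 0.00581) and passed in all 6 fits without 1 library. CEP152 and CCP110 rose by 0.47 and 0.42, each with a call in a single one of those fits, without RBM47 knockdown replicate 1 for CEP152 (adjusted p = 0.0326, and up to 0.0903 in the others) and without control replicate 1 for CCP110 (0.0337, and up to 0.094).

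Of 20 genes of the actomyosin ring, septins and abscission 1 rose and 4 fell (limma; 2 higher and 9 lower at an unadjusted p under 0.05), with a median of -0.11. VPS4B, the ATPase that disassembles the abscission filaments, was at 16.7, 16.9 and 18.3 FPKM in the knockdown and at 27.0, 26.7 and 26.4 FPKM in the control (log2 fold change -0.60, limma, adjusted p = 0.00163). VPS4B kept its call in all 6 fits without 1 library. CHMP4B, a filament subunit, fell by 0.25 on the log2 scale, MYH9, the heavy chain of non-muscle myosin, and SEPT2 each fell by 0.15, and SEPT6 rose by 0.38. MYH9 and SEPT2 lost their calls in each of the 6 fits (adjusted p = 0.0879 to 0.142 and 0.0534 to 0.107). SEPT6 kept its call only without RBM47 knockdown replicate 1 (adjusted p = 0.0387, and up to 0.109 in the others), and CHMP4B lost its call in 3 of the 6 fits, without knockdown replicate 2, or else control replicate 2 or 3 (highest adjusted p = 0.0577). Of 27 paralogues of the mitotic genes and other spindle genes CDC25B, a phosphatase that activates CDK1, rose by 0.55, and the stress-induced kinase PLK2 fell by 0.19 on the log2 scale, a call lost in each of the 6 fits (0.0514 to 0.110). Of the 27, 1 was thus called higher and 1 lower (limma; 6 higher and 3 lower at an unadjusted p under 0.05), with a median of 0.05. The shares over all tested genes were 5.1% higher and 6.34% lower.

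**Figure D5:**
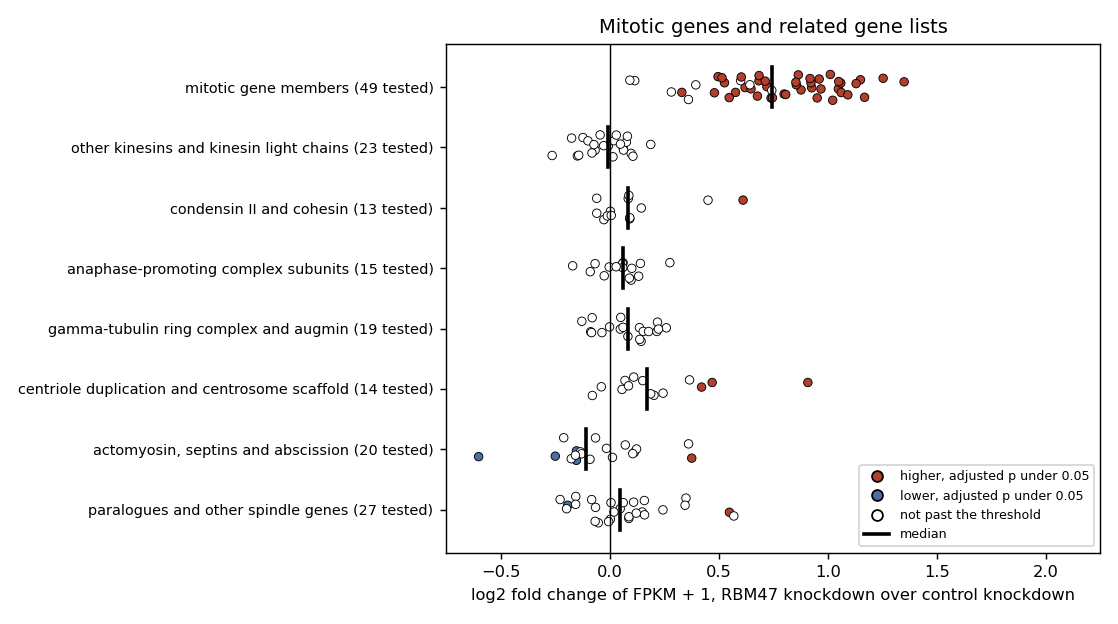
Log2 fold change of FPKM + 1 (RBM47 knockdown over control knockdown, horizontal axis) of each tested gene in the mitotic set and 7 related lists (rows), with a bar at the median. The median of the mitotic set lies at 0.75, and the other medians lie between -0.11 and 0.17.

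Of the 44 genes with a RefSeq start site, 18 share a start region with a gene transcribed the other way, whose start lies within 1000 bases upstream. The other 6 genes could not be searched. Of the 18 neighbours 11 could be tested. SHC1, an adaptor of receptor signalling that starts 305 bases from CKS1B, rose by 0.31 (limma, adjusted p = 0.0068), and the other 10 did not pass. The median log2 fold change of the 11 neighbours was 0.21, against 0.01 for all tested genes, of which 5.1% were called higher. BRD8, opposite KIF20A, had means of 24.3 FPKM in the knockdown and 19.4 FPKM in the control (0.32, adjusted p = 0.114). KIAA1143, opposite KIF15, and PDZD11, opposite KIF4A, lay at 0.05 and 0.11, against 0.96 and 0.88 for the kinesins. OIP5, a centromere loading factor opposite NUSAP1, was at 2.22 FPKM in the knockdown and 1.14 FPKM in the control on average (0.59, adjusted p = 0.0755). The difference between each gene and its neighbour was not tested.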

How the data were processed

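Polyadenylated RNA of H358 cells was made into stranded libraries for paired-end sequencing, according to the labels' protocols, with 3 RBM47 knockdown and 3 control knockdown libraries. Build hg19, Cuffdiff 2.2.0 and TopHat 1.4.1 are listed, without settings, per the submitters' processing notes. The authors deposited gene-level FPKM for 57150 rows. How libraries were scaled, whether strand was used in counting, and the fragment depth are not stated in these sources, so no count test was run and no counting interval is given.

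The 14419 genes averaging 1 FPKM or more across libraries were tested with limma 3.58.1 (R 4.3.3, trended prior) on log2(FPKM + 1), knockdown minus control, with Benjamini-Hochberg adjustment over all of them. This scale understates changes of low genes. P-values set the group difference against the spread between these libraries, moderated by the prior from all tested genes. Fits without 1 library kept the same genes. In simulated data with independent genes the fit recovered 56% of log2 changes of 0.5 and 88% of those of 1. Of its calls there 6.49% were false. The simulation held no variation shared between genes, such as the mitotic set shows. Relative depth was the most frequent ratio of values under 0.3 FPKM in genes alone in their locus.

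The members, roles, comparison lists and motifs were chosen with earlier results of these data known, so no list was tested as a whole. Genes given in every library are, in each role, the 4 called genes with the largest change and all that did not pass, and other members are given by fold change or count. In comparison lists up to 3 called genes of the largest change, or else 2 of the highest level, are named, not all with values in every library. Genes set beside these, and the 10 pairs, were chosen after their values were seen, so the permutation p of a pair is no support. Loci are the table's, in hg19, counted from 1. Promoters are RefSeq's, GRCh38.p14, matched by symbol. Figures were drawn with matplotlib 3.10.9.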

Additional observations from a re-analysis of the deposited data

How the results depend on the processing

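No log2 fold change of the 49 tested genes or of RBM47 changed sign under any of the 16 other settings, and 22 of the 41 calls held in each setting where the gene was tested. The 41 genes called higher became 26 of 50 with no filter and 20 of 23 at a mean of at least 5 FPKM, where fewer genes could be tested, and ranged from 23 to 39 in the fits without 1 library, where fewer libraries were used. No mitotic gene of the set was called lower in any setting. The median log2 fold change was 1.08 and 0.93 with pseudocounts of 0.1 and 0.5, and ranged from 0.71 to 0.90 without 1 library.

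With no filter, the counts called higher were 7 for kinesins, 1 for kinases, 5 for spindle proteins and 1 for CDK subunits, and in the related lists 0 for condensin II and cohesin, 1 for centrioles and 0 for actomyosin. At a mean of at least 5 FPKM 2 of 2 tested kinesins and 2 of 2 kinases were called higher. So were 3 of 5 spindle proteins and 3 of 4 chromosome proteins. In condensin II and cohesin it was 0 of 12, as NCAPG2, with a mean of 4.23 FPKM, was not tested there. The anaphase-promoting complex had 1 of 15 and the centriole list 1 of 8. Quantile normalization left 3 kinases, and array weights called 1 anaphase-promoting complex subunit. Without 1 library the counts ranged from 6 to 10 for kinesins, 1 to 3 for kinases, 4 to 9 for spindle proteins, 2 to 5 for cytokinesis, 4 to 5 for anaphase control, 4 to 5 for chromosome proteins, 1 to 2 for CDK subunits, 0 to 2 for condensin II and cohesin, 1 to 2 for centrioles and 0 to 1 for actomyosin.

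Over all genes 736 were higher and 914 lower. The counts were 366 and 550 with no filter, and without 1 library 235 to 483 higher and 395 to 772 lower. With the replicate number as a block, 348 genes were higher and 489 lower, with 0 higher in the actomyosin list, 0 in the condensin II list and 1 in the centriole list. Over all tested genes same-numbered libraries did not deviate together (correlations of -0.10 to 0.08), but in the mitotic set replicate 1 was the lowest library of both groups, in 46 of 50 genes in the knockdown and 35 of 50 in the control. The replicate block left the calls of the mitotic set at 38 higher. Scaling to the same total FPKM made 53.8% of all calls higher, against 44.6% as deposited. ESPL1 passed with no filter (log2 fold change 0.58, limma, adjusted p = 0.0489). Where a reason is not given, the cause was not tested. Values near 1 FPKM rest on few fragments, and the depth is unknown.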

Other observations

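Among tested genes outside the mitotic set, those with a CHR within 50 bases of a start site are described here as shares of calls. Of 343 such genes that also had a CCAAT box, 8.45% were higher and 8.75% lower in the knockdown, with a median log2 fold change of 0.03. Of 258 with a CHR near the start and no CCAAT box, 8.91% were higher and 10.47% lower. Of 3684 with a CCAAT box and no CHR near the start, 5.43% were higher and 7.36% lower. Of 4947 genes with neither motif 4.47% were higher and 6.67% lower. These shares are descriptions, and the differences between them were not tested.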
